A study of Drosophila melanogaster with 6 samples.

Results

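Chromatin remodellers are ATP-driven machines that slide, evict or exchange nucleosomes, and the 32 genes described here encode subunits of the SWI/SNF, INO80, Tip60, ISWI and CHD classes in Drosophila melanogaster. They were picked by gene symbol, and all 32 were found among the 17559 genes of each count table. All 32 also passed the filter on low counts, which left 8110 genes for testing. Poly(A) RNA from dissected ovaries was sequenced in 6 libraries, 3 from mutant females carrying the allele RanBP9D1 over the chromosomal deficiency BSC469 and 3 from control females carrying the w1118 chromosome over the same deficiency. Both groups therefore share the deficiency and differ in the other homologue, and flies were kept at 25 °C. The labels give no age and do not say whether replicates were separate crosses or dissections, so p-values measure the spread between these libraries, which may be technical. RanBP9 is the older name of Ipo9, whose product Importin-9 carries actin into the nucleus, and the series asks what less nuclear actin does to transcription.

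Nuclear actin is a structural part of several remodellers. Monomeric actin, usually paired with an actin-related protein (Arp), sits on a helical domain next to the motor of the SWI/SNF, INO80 and SWR1-type ATPases, whereas ISWI and most CHD enzymes work without it. In flies the ATPase Brahma is shared by the BAP and PBAP complexes, Domino is the ATPase that exchanges the histone variant H2Av and works with the acetyltransferase Tip60, and Iswi powers ACF, CHRAC and NURF. In ovaries, Iswi, Domino and Brahma are known for roles in keeping germline or somatic stem cells. The data below are mRNA levels and hold no measure of complex assembly or nuclear actin.

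Total counts ran from 21583524 to 26483578 per library, and values are given as CPM (counts per 1000000 counts of the library, with TMM scaling). Ipo9 itself was at 98.2, 91.0 and 92.0 CPM in mutant replicates 1, 2 and 3 and at 118, 155 and 116 CPM in control replicates 1, 2 and 3. Every mutant lay below every control, but the main test did not call it (log2 fold change −0.47, SE 0.12, adjusted p = 0.0544, edgeR). DESeq2's Wald test did (adjusted p = 7.05e-05), and Ipo9 passed in 3 of 15 alternative analyses. The germline markers (vas, osk, bcd, grk, aub and otu) summed to 3024 to 3189 CPM in mutant and 3061 to 3218 CPM in control libraries. The largest part was osk, whose groups overlapped. Every mutant lay below every control for vas, bcd and otu, and above for grk and aub. Thus vas was at 372, 393 and 392 against 445, 426 and 423 CPM, and aub at 150, 146 and 138 against 121, 132 and 122 CPM. The 6 follicle cell markers summed to 4863 to 6011 CPM in mutant and 6097 to 6722 CPM in control libraries, the lowest being mutant replicate 3. That sum was mostly the eggshell gene Vm26Aa and the yolk protein gene Yp1, while tj, a follicle cell transcription factor gene, was at 160, 154 and 106 CPM in the mutant and 115, 123 and 116 CPM in the control libraries. Between the groups the follicle cell markers thus did not move as one. Within the mutant group, though, each of the 6 was lower in replicate 3 than in replicates 1 and 2. Fas3, for example, was at 50.4, 48.7 and 29.6 CPM in mutant replicates 1, 2 and 3. The part of these markers in the results below was not tested. Gut markers summed to 89.2 CPM in mutant replicate 2, 3.03 CPM in mutant replicate 3 and under 0.3 CPM elsewhere, and muscle markers to 73.4 to 132 CPM in mutant and 66.7 to 115 CPM in control libraries. All 6 testis markers stayed under 10 counts in every library. Of the hemocyte and fat body markers, NimC1, He, eater, Fbp1, Lsp1alpha and Lsp1gamma did as well, but others of these lists were expressed. The hemocyte sum, mostly srp, was 84.4 to 116 CPM in mutant and 104 to 116 CPM in control libraries. The fat body sum was almost all Col4a1, at 289, 234 and 155 CPM in the mutant and 168, 195 and 180 CPM in the control libraries. In whole ovaries, fewer cells of a type and less RNA per cell cannot be told apart.

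Remodeller mRNA was close to the control level in the mutant ovaries. Of the 32 genes, 1 passed the test, Acf, which was lower, and 0 were higher. That is 3.12% of the members, while 14.5% of all genes tested were called (8.31% higher and 6.2% lower) by edgeR's quasi-likelihood test at an adjusted p under 0.05. At an unadjusted p under 0.05 (edgeR) there were 4 of the 32 members, all lower (Acf, polybromo, Mi-2 and E(bx)). Of the 8110 genes tested, 2356 had such a p, in either direction. The groups did not overlap for 5 members, or 15.6%, against 34.9% of all genes tested. In 4 of them every mutant lay below every control (16.5% of all genes tested) and in 1 above. The median log2 fold change, mutant over control, was −0.05 over the members and −0.00 over all genes tested, 25 members lay below 0 and 7 above (50.8% of all genes tested lay below), and 26 lay within 0.1 of 0.

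For the 31 members that did not pass, the 95% intervals bound how large a change could have been missed. In 29 of them the whole interval lay within a change of 25% in either direction. The exceptions were Mi-2, whose interval ran from −30.1% to −3.47%, and Ino80, whose interval ran from −36.8% to 56.5%. These intervals describe the spread between these libraries, and a p that misses the threshold does not show that a gene was the same in both groups.

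**Figure D1:**
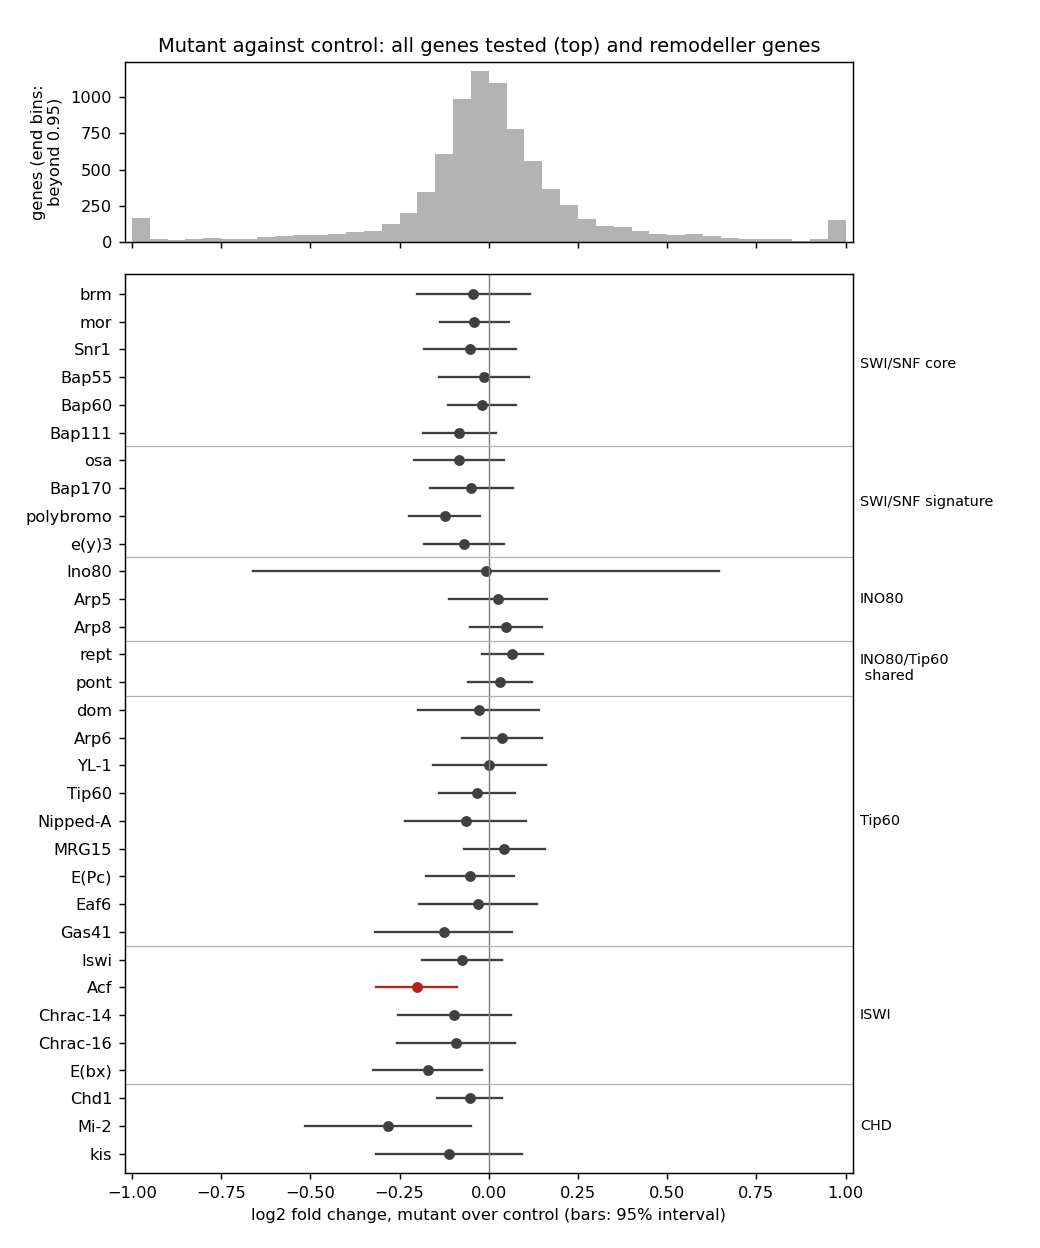
The lower panel plots the log2 fold change (mutant over control) of each remodeller gene as a point with its 95% interval, grouped by complex, with Acf, the gene that passed, in red. The upper panel counts all 8110 genes tested per log2 bin, with values beyond the axis placed in the end bins. The members sit near 0, between −0.28 and 0.07, and the interval of Ino80 is the widest.

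The SWI/SNF core is built on the ATPase Brahma (brm) and the scaffold Moira (mor), with Snr1, Bap60, the HMG-box protein Bap111 and the actin-related protein Bap55. None of these 6 genes passed, and their log2 fold changes ran from −0.08 to −0.01. Bap111, with the smallest p of the group, was at 210, 199 and 223 CPM in the mutant and 223, 221 and 225 CPM in the control libraries, so that mutant replicates 1 and 2 were low and mutant replicate 3 lay among the controls. The difference did not pass (log2 fold change −0.08, SE 0.05, adjusted p = 0.271, edgeR).

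Bap60 was the most even of the core genes in the controls, at 189, 189 and 190 CPM, and it stood at 182, 182 and 197 CPM in the mutants, on both sides of the control values. The ATPase gene brm was at 202, 193 and 207 CPM in the mutant and 205, 229 and 186 CPM in the control libraries. Control replicate 2 was its highest and control replicate 3 its lowest value, so the mutant libraries lay inside the control range (log2 fold change −0.04, SE 0.07, adjusted p = 0.730, edgeR). Bap55, the Arp partner of actin in this complex, was at 82.5 ± 3.30 CPM in control and 81.7 ± 5.73 CPM in mutant ovaries (SD, n = 3 each).

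Signature subunits set BAP apart from PBAP. Osa, an ARID-domain protein, marks BAP, and Bap170, Polybromo and the SAYP protein of the gene e(y)3 mark PBAP. None of the 4 passed, with log2 fold changes of −0.12 to −0.05. polybromo (FBgn0039227), at 24799967 to 24805259 on the minus strand of 3R in the BDGP6 (dm6) build, was at 246, 241 and 261 CPM in the mutant and 274, 279 and 261 CPM in the control libraries. Mutant replicate 3 stood beside control replicate 3, and the other two mutants lay below every control (log2 fold change −0.12, SE 0.04, adjusted p = 0.0956, edgeR). Without mutant replicate 3 polybromo was called, at −0.16 (adjusted p = 0.0395).

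The gene e(y)3 was at 512, 527 and 492 CPM in the mutant and 552, 554 and 500 CPM in the control libraries, and Bap170 at 218, 213 and 228 against 228, 241 and 212 CPM. Both sets overlapped. Per length, the BAP mark osa stood to the PBAP mark polybromo at 0.836 ± 0.0418 in control and 0.862 ± 0.0515 in mutant libraries (ratio of CPM per kb of merged exon, SD, n = 3), and these ranges overlapped too.

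INO80 holds the ATPase Ino80 with the actin-related proteins Arp5 and Arp8, the latter of which sits with actin on the motor. None of the 3 genes passed. Arp8 was at 79.5, 72.7 and 77.3 CPM in the mutant and 73.4, 73.4 and 75.2 CPM in the control libraries, with mutant values on both sides of the controls (log2 fold change 0.05, SE 0.05, adjusted p = 0.534, edgeR). Arp5 was at 34.2, 33.4 and 37.7 CPM against 35.5, 33.5 and 34.4 CPM.

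The ATPase gene Ino80 (3R, 19368995 to 19403153, minus strand) varied more between libraries than any other member. It was at 85.5, 93.8 and 56.1 CPM in mutant replicates 1, 2 and 3 and at 79.7, 93.3 and 63.9 CPM in control replicates 1, 2 and 3. In both genotypes the third library was low and the second high, a spread of 25.3% (coefficient of variation) in the mutant and 18.6% in the control group, where the members' medians were 4.56% and 4.04%. Between the groups it was level within this spread (log2 fold change −0.01, SE 0.25, adjusted p = 0.988, edgeR), and without mutant replicate 3 the log2 fold change was 0.19.

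Pontin (pont) and Reptin (rept) are paired RuvB-like ATPases that belong to both INO80 and Tip60 complexes. Transcripts of rept were at 127 CPM in each of the 3 mutant libraries and at 123, 123 and 118 CPM in the controls, so every mutant lay above every control (log2 fold change 0.07, SE 0.04, adjusted p = 0.299, edgeR). It was the only member with that order, which 18.4% of all genes tested showed. For pont the values were 145, 144 and 148 CPM against 137, 145 and 145 CPM, which overlapped. The ratio of pont to rept per kb was 1.23 ± 0.0156 in mutant and 1.26 ± 0.0613 in control libraries. pont lies 1.15 Mb from Ipo9, the nearest of the members on 3R.

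The Tip60 group here holds the ATPase gene dom, the acetyltransferase gene Tip60, the scaffold Nipped-A and the Enhancer of Polycomb gene E(Pc). It also holds the chromodomain gene MRG15, the histone reader Gas41, the H2Av-binding YL-1 and the small subunit gene Eaf6. Arp6, an Arp gene of the SWR1 type, was grouped with them. None of these 9 passed, and their log2 fold changes ran from −0.13 to 0.04. dom, the most abundant per kb, was at 946, 982 and 840 CPM in the mutant and 895, 1033 and 895 CPM in the control libraries, and the groups overlapped. Gas41, the least abundant, was at 11.7, 11.2 and 10.9 CPM against 12.4, 12.1 and 12.4 CPM. Every mutant lay below every control there (log2 fold change −0.13, SE 0.09, adjusted p = 0.373, edgeR), on 243 to 330 counts per library.

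The gene Tip60 itself was at 41.4 ± 0.982 CPM in mutant and 42.4 ± 0.465 CPM in control ovaries, and Arp6 at 47.7 ± 2.19 and 46.5 ± 0.237 CPM (SD, n = 3 each). YL-1 was level between the groups, at 38.8 ± 3.49 and 38.7 ± 1.69 CPM, with the sign of its difference turning between analyses. Nipped-A, which also serves the SAGA coactivator, ran from 265 to 298 CPM in the mutant and from 267 to 325 CPM in the control libraries, and E(Pc) from 384 to 416 and from 396 to 451 CPM. MRG15 (50.2 to 53.8 and 48.3 to 51.7 CPM) and Eaf6 (20.2 to 22.7 and 20.9 to 23.5 CPM) overlapped between groups as well. MRG15 has 129 bases of exon in common with l(3)neo43, which is read in the same direction, and its value is uncertain for that reason.

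**Figure D2:**
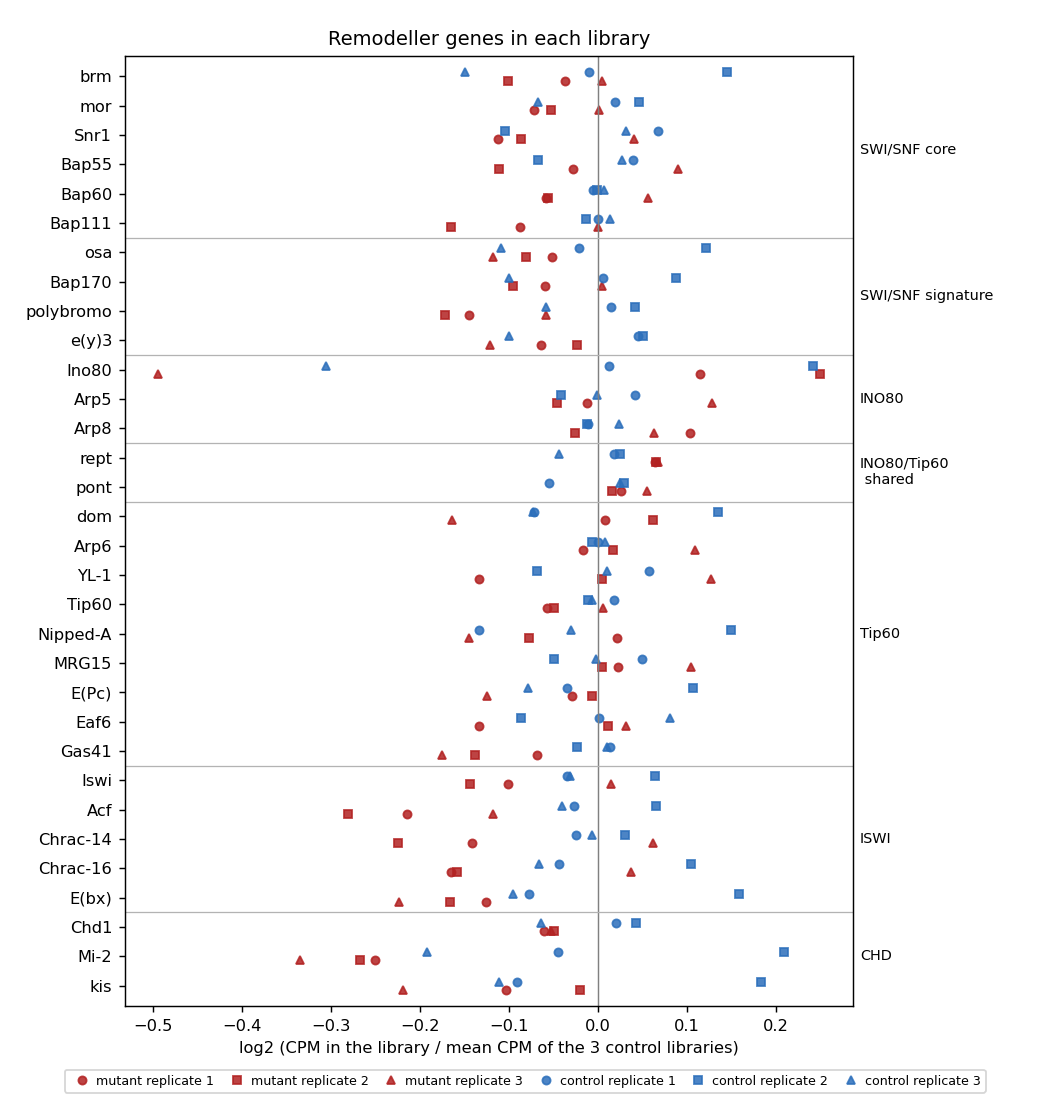
Each point is 1 library, placed by the log2 ratio of its CPM to the mean CPM of the 3 control libraries, for the 32 remodeller genes grouped by complex (red, mutant; blue, control; the marker shape gives the replicate number). Red and blue points mix in most rows, all red points of Acf, E(bx), Mi-2 and Gas41 lie left of the blue ones, and the blue square (control replicate 2) is far right for brm, osa, Nipped-A, E(bx), Mi-2 and kis.

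ISWI complexes gave the 1 member called. Acf encodes the large subunit that joins Iswi in ACF and CHRAC, which space nucleosomes evenly. Acf (FBgn0027620), at 31793981 to 31799799 on the plus strand of 3R, had 7195, 5843 and 6738 counts in the mutant and 8514, 7425 and 7453 counts in the control libraries, or 281, 269 and 301 CPM against 320, 341 and 317 CPM. The highest mutant, replicate 3, stayed under the lowest control, replicate 3. The level fell by 13.1% (95% interval −19.6% to −6.05%; log2 fold change −0.20, SE 0.05, adjusted p = 0.0257, edgeR).

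The call of Acf depended on single libraries. Leaving out any of 4 libraries ended it, namely mutant replicate 1 (adjusted p = 0.0794) or 2 (0.0909) and control replicate 1 (0.0700) or 2 (0.0779). It held without mutant replicate 3 (0.00653) or control replicate 3 (0.0486, all edgeR), and the log2 fold change lay between −0.24 and −0.16 over these 6 fits. The call also ended with the replicate number as a block (adjusted p = 0.0642) and without both libraries numbered 2, where the log2 fold change was −0.13 (adjusted p = 0.189). Acf shares 166 bases, 3.27% of its merged exons, with CG42233 on the opposite strand. Acf lies 20.4 Mb from Ipo9 on 3R. The mutant carries another homologue of the third chromosome than the control. A difference of that chromosome near Acf and an effect of the Ipo9 allele therefore cannot be told apart. On 3R, 14.5% of tested genes were called, and on 2L, 2R, 3L and X between 12.2% and 15.9%.

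Iswi, the motor of these complexes, was at 169, 164 and 183 CPM in the mutant and 177, 190 and 178 CPM in the control libraries, which overlapped (log2 fold change −0.08, SE 0.05, adjusted p = 0.366, edgeR). Per kb, Iswi stood to Acf at 0.838, 0.852 and 0.850 in the mutant and at 0.771, 0.774 and 0.780 in the control libraries, so this ratio of levels was higher in every mutant. It is built on the called gene and is given as a description.

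Chrac-14 and Chrac-16 encode the paired histone-fold subunits of CHRAC. Chrac-14 was at 40.8, 38.5 and 47.0 CPM against 44.3, 46.0 and 44.8 CPM, with mutant replicate 3 above all controls, and it was called without that library (log2 fold change −0.18, adjusted p = 0.0499, edgeR) but not with it (−0.10, 0.413). Chrac-16 was at 28.7, 28.8 and 33.0 CPM against 31.2, 34.5 and 30.7 CPM, again with mutant replicates 1 and 2 lowest and mutant replicate 3 apart from them, and 20.5% of its exons overlap regucalcin on the opposite strand. The ratio of Chrac-14 to Chrac-16 per kb was 1.74 ± 0.0618 in mutant and 1.75 ± 0.0820 in control libraries (SD, n = 3), which overlapped.

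E(bx) encodes the large subunit of NURF, a reader of histone tails. This gene, at 233926 to 246912 on the minus strand of 3L, was at 591, 575 and 552 CPM in the mutant and 611, 720 and 604 CPM in the control libraries. The groups did not overlap, although mutant replicate 1 and control replicate 3 were close, and control replicate 2 stood far above the rest. The difference did not pass (log2 fold change −0.17, SE 0.07, adjusted p = 0.129, edgeR), and the log2 fold change was −0.08 without control replicate 2.

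CHD remodellers have paired chromodomains. Chd1 works with elongating polymerase, Mi-2 is the motor of the repressive NuRD and dMec complexes, and Kismet (kis) is related to the CHD7 class. None of the 3 passed. Mi-2 (FBgn0262519), at 19882051 to 19910215 on the minus strand of 3L, was at 388, 384 and 366 CPM in the mutant and 448, 534 and 404 CPM in the control libraries. All mutants lay below all controls, and the log2 fold change, at −0.28, was the largest in size among the 32 (SE 0.10, adjusted p = 0.107, edgeR). It was −0.17 (adjusted p = 0.0957) without control replicate 2 and −0.37, and called, without control replicate 3 (adjusted p = 0.0256). DESeq2's Wald test gave −0.29 with an adjusted p of 0.00566.

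kis was at 904, 957 and 834 CPM against 911, 1102 and 899 CPM, overlapping, and the log2 fold change was −0.11 (SE 0.09, adjusted p = 0.458, edgeR) and −0.01 without control replicate 2. Chd1 was even, at 389, 392 and 391 CPM in the mutant and 411, 418 and 388 CPM in the control libraries.

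Merged exon length went with part of the spread between libraries. The 14 members with at least 5 kb of merged exon include brm, osa, Nipped-A, E(bx), Mi-2, kis and dom, and in 13 of them control replicate 2 was the highest of the 6 libraries, which it was in 3 of the 18 shorter members. Mutant replicate 3 was the lowest library for 9 of the 14 long and 1 of the 18 shorter members. These orders were not counted over all genes tested, so the counts do not show whether they are particular to the members. The median deviation of the long members from the mean of the 6 libraries, on the log2 scale, was 0.17 in control replicate 2, −0.09 in mutant replicate 3 and between −0.05 and 0.03 in the other 4 libraries. The members together took 0.874% of the counts of control replicate 2 and 0.756% to 0.795% elsewhere.

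All genes showed a weaker form of the same pattern. The 1220 tested genes over 5 kb had median deviations of 0.08 in control replicate 2 and −0.07 in mutant replicate 3, and the 3731 genes under 2 kb had −0.05 and 0.03. Median log2 fold changes were −0.04 for the long and 0.02 for the short genes, and among the members −0.07 for the 14 long and −0.02 for the 12 under 2 kb. With an offset for this trend in each library, an analysis added after the pattern was seen, Acf was at −0.17 (adjusted p = 0.0336, edgeR), Mi-2 at −0.25 (0.0511) and E(bx) at −0.13 (0.0753), and the members' median was −0.03. Under the same offset the short genes Gas41, Chrac-14 and Chrac-16 moved further from 0, to −0.17, −0.14 and −0.14, and were not called. What set the trend in these libraries was not tested.

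**Figure D3:**
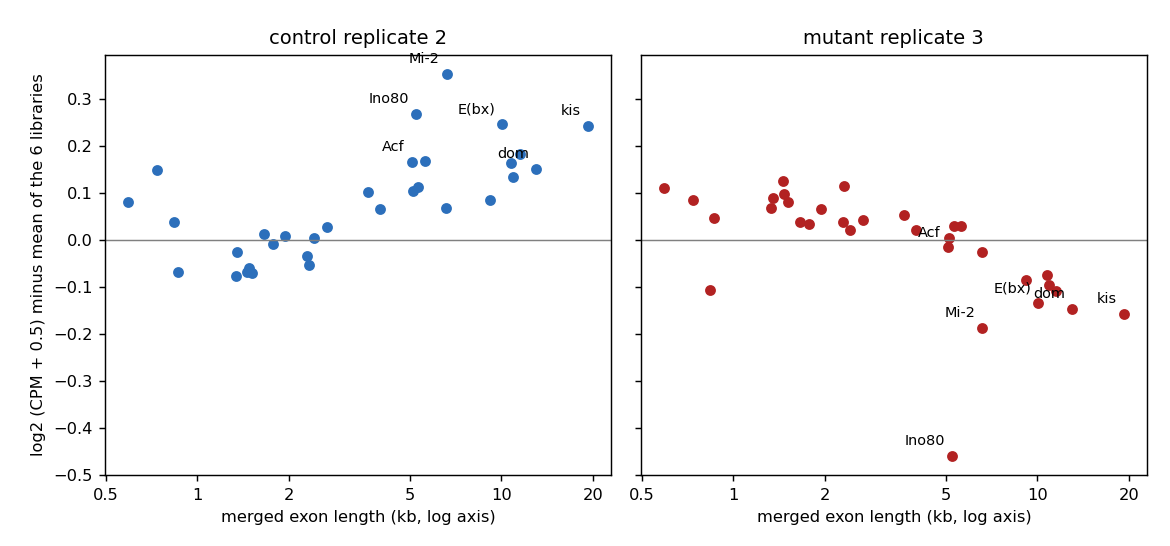
For control replicate 2 (left) and mutant replicate 3 (right), the deviation of log2 (CPM + 0.5) from the mean of the 6 libraries is plotted against merged exon length on a log axis, 1 point per remodeller gene. In control replicate 2 all genes over 5 kb lie above 0, with Mi-2 highest. In mutant replicate 3 most of them lie below 0, with Ino80 lowest.

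Levels per length spread over a range of several fold among subunits of the same complexes. Control levels, in CPM per kb of merged exon, ran from 14.6 for Gas41 to 97.8 for Bap60, with a median of 50.1, where the median of all genes tested was 22.7. Of the members, 28 lay above that value and 4 below it, namely Ino80, Arp5, Tip60 and Gas41. In descending order the first were Bap60 (97.8 ± 0.422) and mor (95.6 ± 3.86), then pont (85.9 ± 2.78), Bap111 (83.5 ± 0.785) and Snr1 (79.7 ± 4.93; SD, n = 3 control libraries). By merged exon length, SWI/SNF core genes filled 4 of the first 5 places, while the motor gene of the same complexes, brm, was at 36.9 ± 3.78, in place 22.

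Chrac-14, dom, Mi-2, rept, Acf, E(bx), Chd1 and e(y)3 followed, from 76.0 down to 58.5 CPM per kb. Iswi stood at 49.8 ± 1.94 and osa at 44.4 ± 3.60. The INO80-specific genes were low among the members, with Arp8 at 32.3 ± 0.458, Ino80 at 15.1 ± 2.81 and Arp5 at 14.9 ± 0.428. On the opposite strand, Arp8 shares 10.1% of its exons with Srx, Arp5 7.80% with CG7208 and Tip60 15.6% with tyf. The levels of these genes are uncertain for that reason. Of the 31 pairs of neighbours in this order, 26 had overlapping control ranges. The breaks without overlap fell after mor, Iswi, Arp6, Arp8 and Nipped-A. With the longest transcript as the length in place of merged exons, the level of e(y)3 was 68.8 and that of dom 88.5 CPM per kb, which put dom above pont, Bap111 and Snr1, and the other 30 moved by less than their SD.

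**Figure D4:**
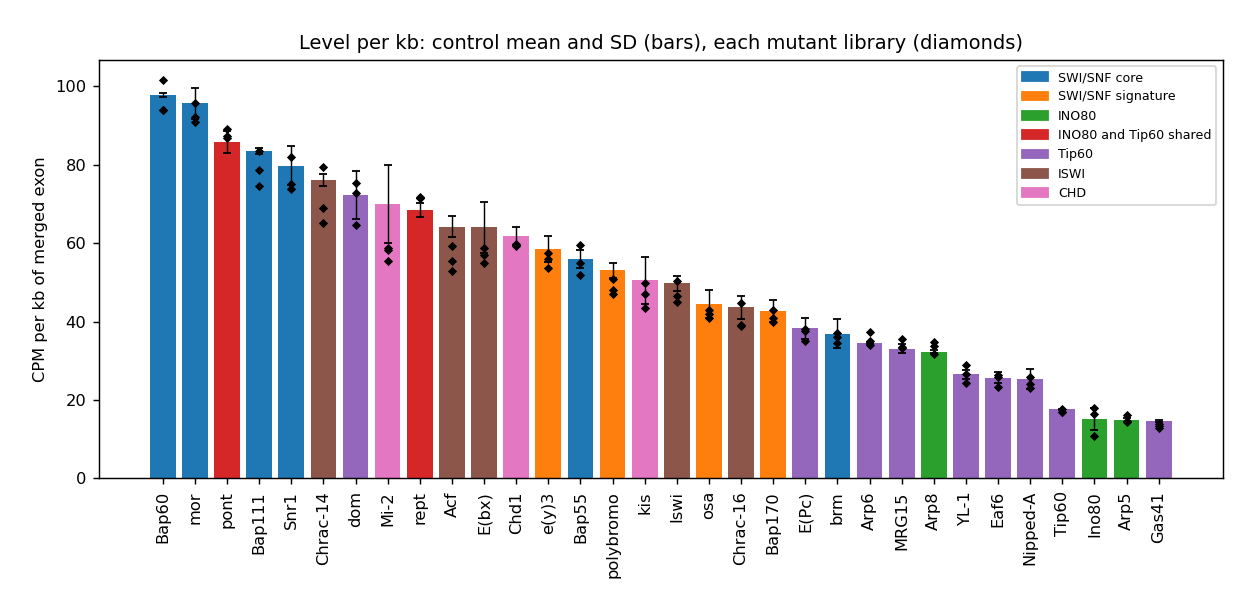
Bars give the mean control level of each remodeller gene in CPM per kb of merged exon with the SD over 3 libraries, coloured by complex, and diamonds give the 3 mutant libraries. Levels fall from 97.8 for Bap60 to 14.6 for Gas41, and the diamonds lie near the bar tops for most genes and below them for Acf and Mi-2.

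The 4 genes of actin-related proteins and both cytoplasmic actin genes were near control levels. Bap55, Arp5, Arp6 and Arp8 had log2 fold changes from −0.01 to 0.05 with 0 called. The 7 motor ATPase genes (brm, Ino80, dom, Iswi, Chd1, Mi-2 and kis) had −0.28 to −0.01 with 0 called. The RuvB-like ATPase genes pont and rept lay above 0, at 0.03 and 0.07, and were not called. These sets also differ in merged exon length. It was 3647 to 19229 bases for the motor genes and 1347 to 2320 bases for the Arp genes, pont and rept. With the offset for exon length, dom was at 0.0085 and Ino80 at 0.022, and the other motor genes stayed below 0, with Mi-2 at −0.25. pont and rept were then at 0.013 and 0.047. Act5C, the main source of the actin subunit, was at 2774, 2770 and 2741 CPM in the mutant and 3076, 2733 and 2988 CPM in the control libraries, with control replicate 2 below the mutants (log2 fold change −0.09, SE 0.05, adjusted p = 0.282, edgeR). Act42A, the other cytoplasmic actin gene, was at 413, 365 and 346 CPM against 359, 349 and 369 CPM, which overlapped.

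A second list held 28 further genes of the same machinery, among them other subunits of these complexes, other Snf2-type ATPases, Act5C and the gene of the exchanged histone, His2Av. The test called 3 of these lower, 0 higher and left 25 uncalled, 10.7% called against 14.5% of all genes, with a median log2 fold change of −0.06 against −0.00. CG8677, which the reference table lists as the fly Rsf-1, an Iswi partner, was at 214, 217 and 214 CPM in the mutant and 240, 263 and 232 CPM in the control libraries. All mutants lay below all controls (log2 fold change −0.19, SE 0.05, adjusted p = 0.0278, edgeR). MTA1-like, a NuRD scaffold gene, fell from 274 ± 7.92 to 248 ± 4.45 CPM (log2 fold change −0.14, SE 0.04, adjusted p = 0.0395, edgeR).

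Hel89B, an ATPase gene related to the Mot1 class that displaces TATA-binding protein, was at 107, 113 and 99.4 CPM against 119, 127 and 121 CPM (log2 fold change −0.20, SE 0.05, adjusted p = 0.0298, edgeR). It starts 385 bases from mor on the opposite strand, and mor, the SWI/SNF scaffold gene, was at 362, 367 and 381 CPM in the mutant and 386, 393 and 364 CPM in the control libraries, which overlapped (log2 fold change −0.04, SE 0.04, adjusted p = 0.583, edgeR). Each of the 3 calls depended on single libraries. That of MTA1-like ended without any single one of the 6 (adjusted p up to 0.135, edgeR), and with all 6 under no composition factor (0.0658), the replicate block (0.0954) or the offset for exon length (0.0557). The call of CG8677 ended without mutant replicate 1 or 2 or control replicate 1 or 2 (up to 0.0802). The call of Hel89B ended without any one library but mutant replicate 2 (up to 0.102). NuRD's deacetylase gene HDAC1 (log2 fold change 0.04) and His2Av (−0.03) did not pass. MEP-1, the partner of Mi-2 in dMec, shares 89.4% of its exons with CG42245 on the same strand, so its 29 to 50 counts per library are no measure of its level.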

How the data were processed

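Each library has its own table of whole-number counts for 17559 genes, which the authors deposited unnormalised with gene positions. The submitters' processing notes name the tools TopHat2, HTSeq and DESeq2 and the genome builds dm6 and BDGP6. Not given in the sources used here were versions, the annotation release and the strand setting of the counting. Genes on opposite strands may therefore share reads, and 13 members overlap an exon of another gene, 2 of them (dom and MRG15) on the same strand. Symbols and exon lengths came from the Ensembl annotation of BDGP6 by gene ID, or by a reciprocal overlap of 90% in position (Ino80).

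Counts were fitted with edgeR 4.0.16 in R 4.3.3 (filterByExpr with a minimum count of 10, TMM factors, robust quasi-likelihood test, two-sided, Benjamini-Hochberg over 8110 genes, threshold 0.05, no covariates), and the procedure was tested on simulated counts. The SE is the log2 fold change over the root of the F statistic, and intervals are at 95%. Alternatives were RLE or no composition factors, 2 other filters, DESeq2 1.42.0, limma-voom (limma 3.58.1), a replicate block, each library left out, both libraries numbered 2 left out, and, added later, an offset for exon length. The rule for the members uses symbols and no measured value, but members and lists were chosen with earlier results of these data known. The named genes were all members, with values by library for those called, those with the smallest p and those with the highest or lowest level per kb in each complex group, and the called genes of the second list. In that list the entry for Rsf-1 was matched to CG8677, because the symbol Rsf1 belongs to a splicing factor. Other members are given by library for their spread or order, a choice made after their values were seen. Without molecular identifiers in the protocol, intervals cannot separate PCR copies from molecules.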

Additional observations from a re-analysis of the deposited data

How the results depend on the processing

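With all 6 libraries, 1 member was called lower under RLE factors, no composition factor, either other filter, limma-voom and the offset for exon length, 2 with DESeq2 (Acf and Mi-2) and 0 with a replicate block, where Acf was at −0.20 with an adjusted p of 0.0642. Leaving out 1 library gave 0 to 3 lower members, those called being Acf, Mi-2, polybromo and Chrac-14, and leaving out both libraries numbered 2 gave 0. Higher members were 0 in every analysis run. In the second list 3 genes were lower, 5 with DESeq2, 4 with RLE factors or no filter beyond 1 count, 2 with no composition factor, the replicate block or the length offset, 0 to 4 with 1 library left out and 0 without both numbered 2. Over all genes 674 rose and 503 fell, 418 and 310 with the replicate block, 319 to 861 and 247 to 614 with 1 library left out, and 243 and 273 without both numbered 2. The labels state no pairing by replicate number. Deviations from the group mean correlated at −0.25, −0.24 and −0.12 between same-numbered libraries, and from −0.05 to 0.27 between the others. Within a group the 3 deviations sum to 0, so these values cannot show whether libraries were prepared in pairs.

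None of the sign changes among members concerned a called gene. YL-1 was at −0.0021 with RLE factors, −0.00078 with the replicate block, −0.0020 with DESeq2, −0.0065 with limma-voom, −0.020 with the length offset and −0.032 without both numbered 2, which also gave 0.062 for brm, 0.019 for Bap170 and 0.022 for Nipped-A. The length offset gave 0.022 for Ino80 and 0.0085 for dom. With 1 library left out, the log2 fold changes ran from −0.063 to 0.067 for YL-1, −0.15 to 0.19 for Ino80, −0.074 to 0.045 for dom, −0.056 to 0.0012 for Bap60, −0.069 to 0.022 for Eaf6, −0.067 to 0.031 for Bap55, −0.027 to 0.059 for Arp5, −0.11 to 0.035 for brm, −0.13 to 0.016 for Nipped-A, −0.091 to 0.0052 for E(Pc) and −0.013 to 0.12 for Act42A. The members' median stayed between −0.08 and −0.02. Beyond the length offset, the cause of these changes was not tested. Gas41, at 243 to 330 counts, has the least depth among the members.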
